A study of Homo sapiens with 18 samples.

Results

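This account follows OCI-AML1, an established human acute myeloid leukaemia cell line of wild-type genotype in the labels, in culture with DMSO, the solvent in which compounds are dissolved, and asks how its polyadenylated RNA differed between 24 h and 8 h. The 6 libraries were chosen by their titles, 3 labelled DMSO at 8 h and 3 labelled DMSO at 24 h, out of 18 libraries in the series. The other 12 libraries come from the same line treated with AML874 or with SEL120-34A, an inhibitor of the Mediator kinases CDK8 and CDK19, for 8 h or 24 h, with 3 libraries in each group. By its title the study links blocking these kinases with the response to venetoclax, a drug against BCL2, and its DMSO libraries are the controls at each time. No further allele, agent or passage is named in the labels, which also do not say whether replicates came from separate flasks, whether the medium was renewed, or when the cells were seeded. P-values therefore measure the spread between these libraries, which may be technical, and hours in culture cannot be told apart from anything else that differed between the 2 collections.

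Leukaemia cells in suspension take sterols, glucose, amino acids and oxygen from a fixed volume of medium, and several well described circuits read those supplies. SREBP2 is released from the endoplasmic reticulum when membrane sterol is low and switches on cholesterol synthesis and uptake, and INSIG1 holds it back. FOXO factors enter the nucleus when PI3K and AKT signalling is low, HIF factors are stable when oxygen is scarce, ATF4 is translated when amino acids are scarce, and MYC with its partners drives ribosome assembly in growing cells. The genes below are ordered by these roles. The lists were assembled for this line and reflect results of these data that were already known, so each list is described by its counts and its median beside those of all genes.

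The 6 libraries held between 98975944 and 138609878 counts in genes, and 1 count was worth so little that 3 counts corresponded to at most 0.0303 CPM (counts scaled to each library's total). The root mean square log2 distance between libraries was 0.101 to 0.142 for the 6 pairs of the same time and 0.247 to 0.312 for the 9 pairs of different times. The labelled cell type was borne out by its markers, since 11 of 12 myeloid leukaemia markers, among them PTPRC, CD33, SPI1 and LYZ, had a mean of at least 1 TPM, the authors' length-scaled unit, over the 6 libraries. Their summed level was 1221 to 1245 TPM at 8 h and 1088 to 1090.5 TPM at 24 h. Among markers of other cell types, no erythroid, megakaryocyte, stromal or epithelial gene had such a mean, with HBA1 and HBB at 0, and the listed genes of other types that did were CD79A, TRAC, NKG7 and PECAM1. In 1 library the megakaryocyte gene ITGA2B reached 1.02 TPM. In bulk RNA of this kind, fewer cells of a type and less RNA per cell cannot be told apart.

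Between 8 h and 24 h, 8898 of 20920 genes tested changed at an adjusted p below 0.05 (42.5%), with edgeR's quasi-likelihood test and Benjamini-Hochberg adjustment over all genes. Of these, 4151 rose (19.8% of genes tested) and 4747 fell (22.7%), so 46.7% of the changed genes were higher at 24 h. That share became 57.1% when libraries were scaled to their totals alone. The 3 libraries of each time did not overlap for 10470 genes (50%), of which 4971 were higher (23.8%) and 5499 lower (26.3%). Most changes were small, with a median absolute log2 fold change of 0.245 among changed genes. Only 469 genes rose by at least 2-fold (2.24%) and 117 fell by at least 2-fold (0.559%), and most of those came from rare transcripts. Among the 13087 genes with at least 1 CPM in the higher group, 62 rose (0.474%) and 27 fell (0.206%) by at least 2-fold. Of those same 13087 genes, 25.8% rose and 34.4% fell by any amount, with a median log2 fold change of -0.024, and this is the fairest background for the lists below, whose members are mostly well expressed.

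**Figure D1:**
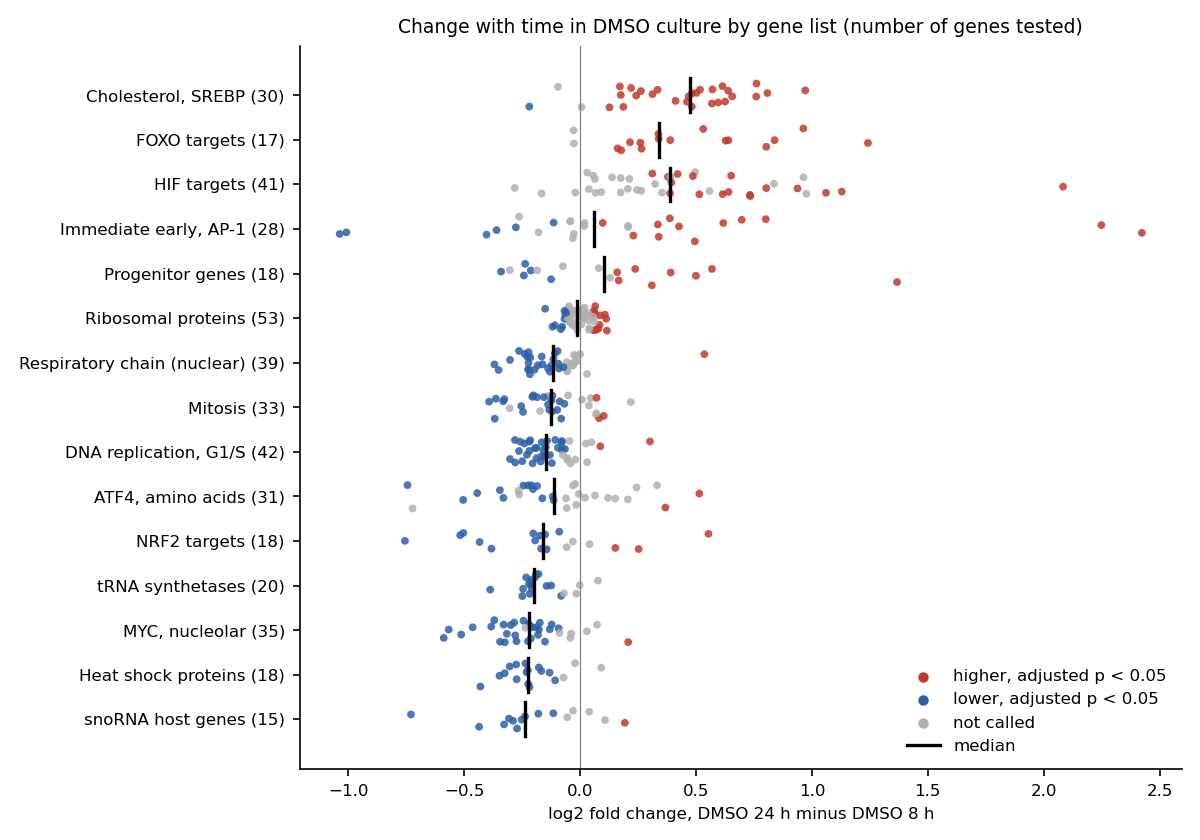
Log2 fold change between DMSO 24 h and DMSO 8 h of each tested gene in 15 lists (1 point per gene, coloured by the edgeR call, with a black line at the median of the list). The cholesterol, FOXO and HIF lists sit mostly to the right of 0, and the lists for ribosome assembly, tRNA charging, heat shock, replication and mitosis mostly to the left.

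Genes of cholesterol synthesis and uptake rose nearly throughout. Of 30 tested genes 27 rose and 1 fell, with a median log2 fold change of 0.48, and the count of 27 was the same under every alternative setting and without any single library. Expression in the 3 libraries at 8 h was nearly identical, with mean list levels of 6.27 to 6.28 log2 CPM, against 6.63 to 6.81 at 24 h. The highest of these was the first 24 h replicate. INSIG1, the endoplasmic reticulum protein that retains SREBP2 (chr7:155297776-155310235, plus strand in GRCh38), stood at 166, 156 and 163 CPM at 8 h and at 303, 257 and 261 CPM at 24 h. Its log2 fold change was 0.76 ± 0.069 (standard error, as after every ± below), with an adjusted p of 9.1e-07 from edgeR. The 2 sets of libraries did not overlap.

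The rise covered most steps of the pathway. SREBF2, which encodes SREBP2 itself, rose by 0.52 ± 0.032 on the log2 scale, from 223, 219 and 223 CPM to 341, 307 and 303 CPM. Among enzymes, HMGCS1 rose by 0.48 ± 0.057, SQLE by 0.47 ± 0.048, FDFT1 by 0.46 ± 0.042 and LSS, which closes the sterol ring, by 0.66 ± 0.066. STARD4, which carries cholesterol between membranes, rose by 0.81 ± 0.12. The largest change in the list was that of the fatty acid desaturase gene FADS2 (0.97 ± 0.073), which went from 144, 137 and 140.3 CPM to 311, 259 and 257 CPM. SCD, another desaturase, rose by 0.60 ± 0.063 and the fatty acid synthase gene FASN by 0.19 ± 0.039. PMVK, an enzyme of the mevalonate steps, was the single gene that fell (-0.22 ± 0.033), and EBP and NSDHL did not pass the test (adjusted p = 0.051 and 0.94). The liver X receptors answer sterol excess, and 10 genes of these receptors and their targets were tested. Of these 5 rose and 1 fell, with MYLIP, which encodes a ubiquitin ligase, at 0.44 ± 0.16. The lowest value was that of NR1H2 (-0.19), a receptor gene and not a target. That count of 5 became 2 without the second 24 h library.

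Promoters of the cholesterol genes were read because the members moved together. The window was 250 bases before to 50 after the start of each gene in RefSeq (GRCh38.p14), and it could be matched for 24 of the 30 genes. The CCAAT box, the NF-Y site with which SREBP factors commonly pair, was searched as CCAAT on both strands and occurred in 17 of 24 windows (70.8%), against 36.3% of the 12042 windows of all tested genes. The share was as high in the mitotic list (19 of 27, 70.4%) and 55.6% in the replication list, both of which mostly fell. It does not overlap the other motifs searched. The windows of STARD4 at chr5:111512486-111512785 (minus strand), INSIG1 at chr7:155297628-155297927 (plus strand) and LSS at chr21:46228725-46229024 (minus strand) are shown for a sterol carrier, the SREBP retention factor and an enzyme, with the box or its reverse complement in capitals. A match is a description of the letters only.

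STARD4: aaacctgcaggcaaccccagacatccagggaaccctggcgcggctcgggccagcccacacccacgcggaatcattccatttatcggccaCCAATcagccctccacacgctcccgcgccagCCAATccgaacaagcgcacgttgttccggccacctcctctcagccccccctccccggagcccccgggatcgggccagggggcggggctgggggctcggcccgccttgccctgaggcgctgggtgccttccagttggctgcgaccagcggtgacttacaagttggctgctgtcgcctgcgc

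INSIG1: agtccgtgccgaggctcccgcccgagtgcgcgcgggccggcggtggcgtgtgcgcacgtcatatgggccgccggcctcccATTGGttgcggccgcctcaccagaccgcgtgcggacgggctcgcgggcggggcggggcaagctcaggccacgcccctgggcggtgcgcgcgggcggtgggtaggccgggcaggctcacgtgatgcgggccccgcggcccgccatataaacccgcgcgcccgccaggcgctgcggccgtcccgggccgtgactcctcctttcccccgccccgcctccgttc

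LSS: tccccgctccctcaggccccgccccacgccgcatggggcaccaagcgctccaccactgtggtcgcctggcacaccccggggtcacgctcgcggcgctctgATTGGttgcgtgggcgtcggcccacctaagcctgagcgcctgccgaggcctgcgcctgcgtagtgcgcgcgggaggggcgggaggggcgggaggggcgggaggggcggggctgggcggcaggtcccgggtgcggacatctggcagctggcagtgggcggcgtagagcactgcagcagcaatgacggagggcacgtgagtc

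The list of FOXO factors and their targets behaved alike. Of 17 tested genes, among them FOXO1, FOXO3 and FOXO4 themselves, 15 rose and none fell. The median log2 fold change was 0.34, and again no alternative or left-out library changed the 15. BCL6, a transcriptional repressor of the lymphoid and myeloid lineages (chr3:187721377-187745727, minus strand), had 10.8, 10.2 and 12.6 CPM at 8 h and 28.1, 26.6 and 24.7 CPM at 24 h, a log2 fold change of 1.24 ± 0.077 with an adjusted p of 1.6e-09. CITED2, which competes with HIF for its coactivator, went from 183, 179.8 and 173 CPM to 398, 322 and 323 CPM (0.96 ± 0.079). PIK3IP1, an inhibitor of PI3K, rose by 0.84 ± 0.10, and TXNIP, a brake on glucose uptake, by 0.64 ± 0.057. CCNG2, an atypical cyclin of resting cells, rose by 0.80 ± 0.15, and SESN3, an inhibitor of mTORC1, by 0.53 ± 0.041. For all of these genes every 24 h library lay above every 8 h library. CCNG2 is also a HIF target and stands in both lists.

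Targets of HIF rose in part, and here 1 library stood apart. Of 41 tested genes 17 rose and none fell, with a median of 0.39. The mean level of the list was 4.86, 4.65 and 5.31 log2 CPM in the 3 libraries at 8 h and 5.58, 5.33 and 5.35 at 24 h, so the third 8 h replicate lay close to the 24 h libraries and away from its own group. That replicate held the highest 8 h value for 39 of the 41 genes. Without it 27 genes rose, and when only the 6 DMSO libraries were fitted 11 did. What set that library apart was not tested.

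PPFIA4, a liprin gene listed among HIF targets (chr1:203026498-203078740, plus strand), had 12.0, 9.76 and 17.7 CPM at 8 h and 30.8, 26.0 and 29.2 CPM at 24 h, with a log2 fold change of 1.13 ± 0.25 and an adjusted p of 0.0027. P4HA2, a collagen prolyl hydroxylase, went from 4.54, 3.79 and 6.59 CPM to 12.1, 9.59 and 9.32 CPM (1.06 ± 0.21). MIR210HG, the host transcript of the hypoxia microRNA miR-210, rose by 0.94 ± 0.32, the histone demethylase gene KDM3A by 0.64 ± 0.15 and the mitophagy receptor gene BNIP3L by 0.73 ± 0.20. CA9, a carbonic anhydrase and a classical hypoxia marker, was rare, at 0.0416, 0.0377 and 0.135 CPM at 8 h and 0.358, 0.350 and 0.205 CPM at 24 h. Other classical targets did not pass the test, with VEGFA at 0.14 ± 0.078 (adjusted p = 0.19), SLC2A1 at 0.057 ± 0.072 (adjusted p = 0.58) and ADM at 0.17 ± 0.53 (adjusted p = 0.83). For ADM the libraries overlapped, at 3.02, 1.63 and 6.45 CPM against 4.84, 3.51 and 4.05 CPM, and the third 8 h replicate was the highest of all 6.

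Among 11 components of the pathway 5 rose and 3 fell. HIF1A itself fell slightly (-0.14 ± 0.030) and ARNT, its partner, rose by 0.29 ± 0.033. The largest rise among them was that of CITED2 (0.96), which also stands in the FOXO list. EGLN1, the oxygen-sensing hydroxylase, is counted among the HIF targets and not here, and rose by 0.38 ± 0.086. Glycolytic genes did not move as a group, with 6 of 24 higher, 4 lower and a median of 0.09, and the count of 6 was 3 without the first 24 h library and 11 with limma-voom. The aldolase gene ALDOC was the exception, at 19.4, 11.9 and 23.1 CPM at 8 h and 68.2, 48.0 and 48.9 CPM at 24 h (1.61 ± 0.26). PGK1 rose by 0.24 ± 0.059, while the lactate carrier gene SLC16A1 fell (-0.23 ± 0.027).

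The HIF core letters ACGTG, searched on both strands, were present in 19 of 32 matched promoter windows of the list (59.4%), against 26.3% of all windows. ACGTG lies inside the E-box CACGTG, which MYC and other factors also bind and which was found in 10 of these 32 windows and in 9.94% of all. In the MYC network and nucleolar list, which mostly fell, ACGTG was present in 16 of 30 windows (53.3%) and the E-box in 9 of 30, close to the shares of the HIF list. PPFIA4 at chr1:203026241-203026540 (plus strand) and MIR210HG at chr11:568408-568707 (minus strand) are shown as risen members, with ACGTG or its reverse complement in capitals. In PPFIA4 the matches on both strands overlap in a single E-box.

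PPFIA4: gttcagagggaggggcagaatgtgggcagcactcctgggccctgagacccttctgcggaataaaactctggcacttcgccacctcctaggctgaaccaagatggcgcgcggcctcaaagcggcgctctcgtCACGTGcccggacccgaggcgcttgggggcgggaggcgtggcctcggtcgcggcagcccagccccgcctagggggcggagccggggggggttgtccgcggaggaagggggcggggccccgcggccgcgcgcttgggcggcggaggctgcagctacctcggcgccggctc

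MIR210HG: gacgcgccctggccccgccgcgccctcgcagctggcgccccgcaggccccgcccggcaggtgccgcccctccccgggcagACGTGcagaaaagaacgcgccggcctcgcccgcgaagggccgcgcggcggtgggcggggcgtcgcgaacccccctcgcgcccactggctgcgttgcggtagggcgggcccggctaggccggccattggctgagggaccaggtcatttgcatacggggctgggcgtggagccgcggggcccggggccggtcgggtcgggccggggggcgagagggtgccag

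**Figure D2:**
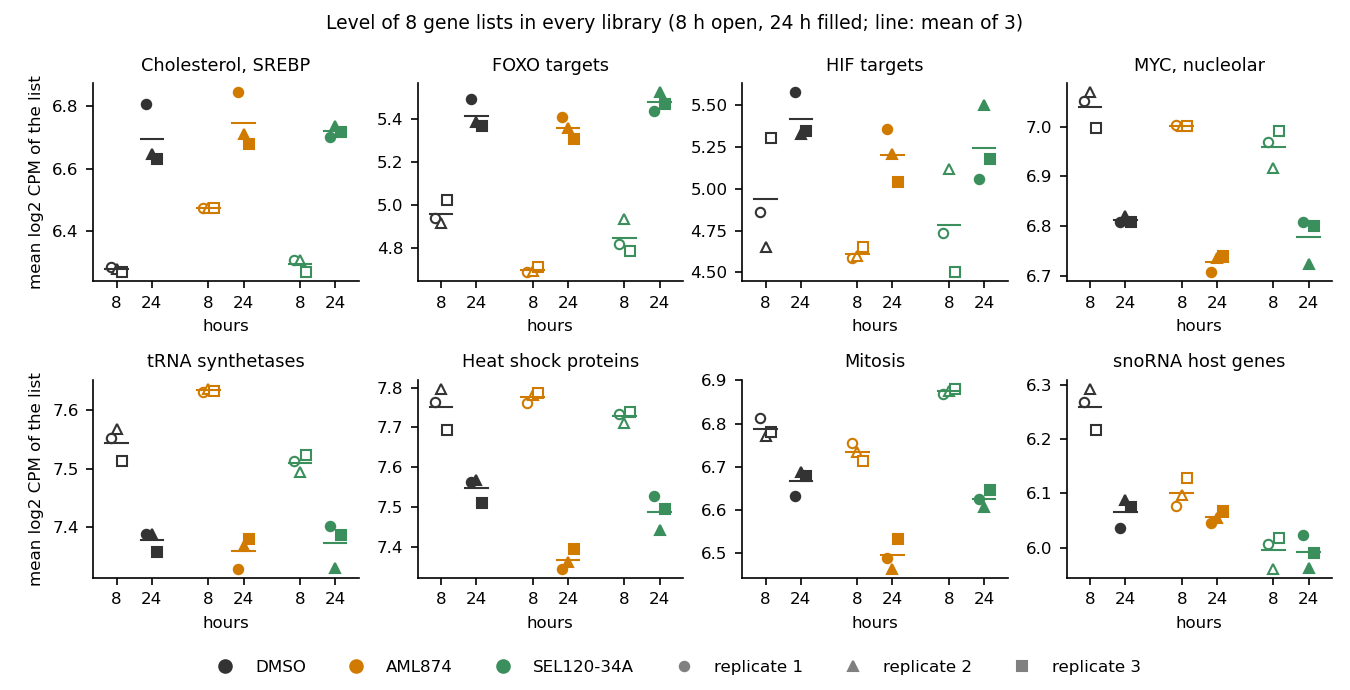
Mean log2 CPM of 8 gene lists in each of the 18 libraries, by treatment and hours in culture (open symbols 8 h, filled symbols 24 h, shape by replicate number, line at the mean of 3). In DMSO the 8 h and 24 h libraries do not overlap in any panel, and the third 8 h DMSO library (square) lies at 5.31 for HIF targets, near the 24 h libraries.

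Ribosome assembly moved the other way. In the list of MYC network and nucleolar genes 28 of 35 fell and 1 rose, with a median of -0.22, and the count of 28 stayed between 27 and 29 under all alternatives. TFRC, the transferrin receptor gene and a MYC target, fell from 719, 703 and 713 CPM to 482, 459.6 and 478 CPM (-0.59 ± 0.023, adjusted p = 4.1e-20). ODC1, the first enzyme of polyamine synthesis, went from 479, 493 and 449 CPM to 332, 336 and 328 CPM (-0.51 ± 0.053). Among assembly factors of the nucleolus, RRS1 changed by -0.57 ± 0.055, NOP16 by -0.46 ± 0.058 and NOP58 by -0.35 ± 0.027, all fewer at 24 h. MYC itself was at 688, 679 and 677 CPM at 8 h and 689.9, 656 and 643 CPM at 24 h, with overlapping libraries and an adjusted p of 0.23. The single riser was MXD4, a MAX partner that represses MYC targets (0.21 ± 0.030).

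Host transcripts of small nucleolar RNAs fell in 10 of 15 cases and rose in 1, with a median of -0.24. SNHG12 went from 37.3, 37.8 and 34.3 CPM to 20.4, 22.4 and 23.2 CPM (-0.73 ± 0.048) and SNHG1 from 159, 159 and 154 CPM to 112, 118 and 119.8 CPM (-0.44 ± 0.027). The aminoacyl-tRNA synthetases, which charge tRNAs for translation, fell in 16 of 20 cases and none rose, with a median of -0.20. WARS1 had the largest change among them (-0.39 ± 0.031). The protein components of the cytosolic ribosome stayed close to 0, with 11 of 53 higher, 9 lower and a median of -0.01. That balance depended on scaling, with 23 higher and 3 lower when library totals alone were used, so no direction is given for them.

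The amino acid response did not rise with time. Of 31 ATF4 target and amino acid genes 13 fell, 2 rose and the median was -0.11. ATF5 had 38.5, 37.9 and 34.8 CPM at 8 h and 20.9, 22.3 and 23.0 CPM at 24 h (-0.75 ± 0.047), and the glutamine carrier gene SLC1A5 and the large neutral amino acid carrier gene SLC7A5 fell (-0.50 ± 0.031 and -0.44 ± 0.058). ATF4 did not pass the test (-0.061 ± 0.030, adjusted p = 0.10).

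Chaperone genes were lower as well. Of 18 heat shock genes 15 fell and none rose, with a median of -0.23. HSP90AA1, the inducible cytosolic HSP90, was at 2863, 2989 and 2727 CPM and then 2270.3, 2285 and 2288 CPM (-0.33 ± 0.027), and the mitochondrial chaperonin genes HSPD1 and HSPE1 changed by -0.23 ± 0.024 and -0.35 ± 0.058. HSPA1A and HSPA1B are near-identical copies, and reads may be split between them. Among 18 targets of the oxidant sensor NRF2, 12 fell and 3 rose, with the quinone reductase gene NQO1 at -0.76 ± 0.070 and the peroxiredoxin gene PRDX1 at -0.52 ± 0.027, while HMOX1 rose from 1.25, 1.20 and 1.24 CPM to 2.14, 1.83 and 1.43 CPM (0.55 ± 0.18). Metal-binding metallothioneins and the zinc exporter of their list rose in 4 of 5 cases. MT2A spread widely at 24 h, with 13.7, 14.9 and 12.5 CPM at 8 h and 45.8, 32.3 and 22.5 CPM at 24 h (1.29 ± 0.20). Genes of the respiratory chain encoded in the nucleus fell in 25 of 39 cases and rose in 1, with a median of -0.12.

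Cell cycle genes fell by small amounts. Of 42 genes of DNA replication and the G1/S transition 31 fell and 2 rose, with a median of -0.15, and of 33 mitotic genes 20 fell, 3 rose and the median was -0.12. The mitotic count was 14 without the first 8 h library and 16 without the third. With library totals alone, 23 replication genes fell and 4 rose, and 15 mitotic genes fell and 6 rose. CDC20, the activator of the anaphase-promoting complex (chr1:43358955-43363203, plus strand), went from 233, 228 and 221 CPM to 172, 181 and 167 CPM (-0.39 ± 0.047, adjusted p = 2.7e-06), and the mitotic cyclin gene CCNB1 from 227, 218 and 218 CPM to 168, 174 and 170.5 CPM (-0.37 ± 0.037). In the replication list, the licensing factor gene CDC6 changed by -0.30 ± 0.035, CCNE1 by -0.28 ± 0.052 and RRM2, a subunit of ribonucleotide reductase, by -0.15 ± 0.022, whereas MCM2 did not pass the test (adjusted p = 0.061). The D-type cyclins fell, CCND3 from 105, 110.2 and 103 CPM to 78.2, 74.3 and 72.4 CPM (-0.50 ± 0.036) and CCND2 from 71.3, 73.0 and 73.2 CPM to 55.4, 58.2 and 58.4 CPM (-0.34 ± 0.032). Their partner kinase gene CDK6 rose (0.24 ± 0.024), as did the inhibitor gene CDKN1B (0.26 ± 0.036) and the pocket protein gene RBL2 (0.28 ± 0.026).

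The cell cycle genes homology region was searched as TTTGAA on both strands. It was present in 16 of 27 matched windows of the mitotic list (59.3%), against 10.4% of all windows, and does not overlap the other motifs searched. In the replication list, which also mostly fell, it was present in 1 of 36 windows (2.78%). CDC20 at chr1:43358731-43359030 (plus strand) is shown because it had the largest fall of the list, with TTTGAA or its reverse complement in capitals.

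CDC20: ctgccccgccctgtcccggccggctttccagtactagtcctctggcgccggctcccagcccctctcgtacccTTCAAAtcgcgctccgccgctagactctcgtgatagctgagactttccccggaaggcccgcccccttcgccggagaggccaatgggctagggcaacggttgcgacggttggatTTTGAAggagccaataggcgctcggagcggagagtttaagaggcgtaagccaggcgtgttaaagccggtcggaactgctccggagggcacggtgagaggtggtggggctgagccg

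Immediate early genes, which answer growth factor and stress signals within minutes, went in both directions, with 12 of 28 higher and 6 lower. EGR1 had 54.6, 53.7 and 89.3 CPM at 8 h, where the third replicate was again the highest, and 129, 101 and 115 CPM at 24 h (0.80 ± 0.20, adjusted p = 0.0048). EGR2 was much rarer, at 0.302, 0.219 and 0.605 CPM and then 2.19, 1.48 and 1.63 CPM (2.25 ± 0.24). FOS rose by 0.49 ± 0.10 and FOSL2 by 0.62 ± 0.075, while FOSB went from 2.08, 1.58 and 1.51 CPM to 0.841, 0.803 and 0.857 CPM (-1.04 ± 0.15) and IER3 fell as well (-1.01 ± 0.15). Feedback genes of ERK signalling were also mixed, with 5 of 15 higher and 4 lower, and the ERK phosphatase gene DUSP6 at 0.46 ± 0.037. Of 23 NF-kappaB and inflammatory genes 5 rose and 5 fell, and the 5 risen became 9 without the third 8 h library. The chemokine gene CXCL8 went from 94.3, 74.6 and 119 CPM to 255, 174 and 189.6 CPM (1.10 ± 0.22), and CCL2 rose by 0.66 ± 0.15, whereas ICAM1 fell (-0.19 ± 0.065).

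Markers of the myeloid programme changed gene by gene, not as blocks. Among 16 tested genes of granule proteins 5 rose and 4 fell. MPO, the myeloperoxidase of primary granules (chr17:58269856-58280935, minus strand), had 14.6, 16.0 and 14.2 CPM at 8 h and 33.6, 37.6 and 33.7 CPM at 24 h (1.23 ± 0.058, adjusted p = 5.4e-17), and BPI, another primary granule protein, rose by 0.64 ± 0.081. LYZ, lysozyme, went from 346, 353 and 349 CPM to 234, 226 and 234 CPM (-0.60 ± 0.024), and CFD, complement factor D, from 21.1, 21.1 and 20.7 CPM to 10.2, 10.1 and 10.8 CPM (-1.02 ± 0.043). Of 31 monocyte and macrophage genes 12 rose and 4 fell, with 1 fall left under a filter of 1 CPM. ITGAX, which encodes CD11c, went from 6.29, 5.19 and 7.44 CPM to 15.5, 13.5 and 13.7 CPM (1.18 ± 0.13), the M-CSF receptor gene CSF1R rose by 0.46 ± 0.054 and MS4A6A by 0.45 ± 0.028, and the thrombomodulin gene THBD fell (-0.62 ± 0.071).

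Among 18 progenitor genes 8 rose and 5 fell, with 3 falls without the third 8 h library. The receptor kinase gene FLT3 (chr13:28003274-28100592, minus strand) went from 48.5, 47.9 and 53.2 CPM to 77.8, 69.8 and 74.2 CPM (0.57 ± 0.055), and the stem and progenitor factor gene GATA2 from 48.6, 44.1 and 44.4 CPM to 71.6, 62.3 and 59.6 CPM (0.50 ± 0.072). CD33 and HOXA9 fell (-0.24 ± 0.033 and -0.24 ± 0.040). Among 22 transcription factors of the lineage 12 rose and 6 fell. In the C/EBP family CEBPA, CEBPB, CEBPE and CEBPG fell, with CEBPA at -0.37 ± 0.056, and CEBPD did not pass the test (adjusted p = 0.092). SPI1, which encodes the ETS factor PU.1, fell as well (-0.25 ± 0.030). ZEB2, FLI1, ETS2, MEF2C and IRF8 rose, with ZEB2 at 0.47 ± 0.030.

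Antigen presentation genes went in both directions. Of 18 genes of the MHC class I pathway 5 rose and 5 fell, with a median of -0.01. Of 16 genes of the MHC class II pathway 8 fell and 2 rose, and the 8 became 4 without the third 8 h library. CIITA, the master regulator of the class II genes, went from 60.2, 60.7 and 65.5 CPM to 96.9, 99.9 and 94.3 CPM (0.64 ± 0.037), while HLA-DRA, a class II chain, was at 251, 250.4 and 268 CPM and 253, 237 and 237 CPM, with overlapping libraries and a small fall (-0.082 ± 0.026). Of 29 lysosome and autophagy genes 14 fell and 4 rose, led by the protease gene CTSD, from 62.9, 65.3 and 64.3 CPM to 42.6, 42.1 and 38.9 CPM (-0.64 ± 0.034). NPC1, which exports cholesterol from lysosomes, was among those that rose (0.34 ± 0.063).

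The apoptosis regulators named by the aim of the series changed by small amounts. BCL2, the target of venetoclax (chr18:63123346-63320128, minus strand), had 322, 315 and 329.7 CPM at 8 h and 426, 407 and 399.7 CPM at 24 h, without overlap (0.35 ± 0.029, adjusted p = 9.6e-12). MCL1 did not pass the test (-0.027 ± 0.023, adjusted p = 0.37) and BCL2L1, which encodes BCL-xL, fell (-0.16 ± 0.042). The effector genes BAX and BAK1 fell (-0.23 ± 0.025 and -0.28 ± 0.041), and among BH3-only genes BMF rose from 40.3, 40.2 and 48.1 CPM to 53.9, 53.8 and 51.6 CPM (0.31 ± 0.077) and PMAIP1 by 0.21 ± 0.066, while BCL2L11 and BBC3 did not pass the test (adjusted p = 0.53 and 0.31). In all, 4 of 13 family members rose and 5 fell.

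Genes of the Mediator kinase module, the target of SEL120-34A, rose in 4 of 7 cases and fell in 1. MED13L went from 217, 211 and 233 CPM to 319, 308 and 299 CPM (0.49 ± 0.040). The kinase gene CDK19 rose by 0.26 ± 0.050, and its paralogue CDK8 stood at 36.7, 36.9 and 37.8 CPM and 38.1, 37.9 and 36.8 CPM (0.017 ± 0.033, adjusted p = 0.72). MED12 rose by 0.24 ± 0.033, and CCNC, the cyclin of both kinases, fell from 77.9, 76.9 and 77.6 CPM to 65.5, 64.7 and 64.9 CPM (-0.25 ± 0.029).

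The 30 protein-coding genes with the largest changes at 5 CPM or more in the higher group kept their call and direction under every alternative. They were chosen for a call and for libraries that do not overlap, so this is largely given by the choice. ENPP2, which encodes the secreted enzyme autotaxin, rose most, from 24.3, 17.1 and 19.0 CPM to 114, 66.6 and 74.9 CPM (2.09 ± 0.25), with the first 24 h library well above the other two. ZFP36L1, an RNA-binding protein that promotes mRNA decay (chr14:68787660-68796253, minus strand), went from 3.83, 3.92 and 3.59 CPM to 14.6, 10.8 and 11.9 CPM (1.72 ± 0.14). C3AR1, the receptor of complement C3a, went from 2.696, 1.70 and 2.10 CPM to 7.77, 5.12 and 5.49 CPM (1.52 ± 0.28). Other large rises were those of RXFP1 (1.35 ± 0.22), the semaphorin receptor gene NRP2 (1.20 ± 0.19), the chromatin factor gene ARID5B (1.15 ± 0.10) and the growth factor gene HGF (1.11 ± 0.087). CCL3L3 (1.57 ± 0.19) and TRIM16 (1.16 ± 0.13) have near-identical copies in the genome, and their reads may belong to either copy.

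The largest falls differed in their spread between replicates, with standard errors from 0.034 to 0.10 among those given here. MLLT11, a small protein first found as a fusion partner in leukaemia (chr1:151057758-151068497, plus strand), went from 8.20, 7.92 and 7.71 CPM to 2.49, 2.39 and 2.22 CPM (-1.75 ± 0.076, adjusted p = 6.2e-19). PIR, which encodes the iron-binding nuclear protein pirin (chrX:15384799-15493564, minus strand), went from 25.6, 24.1 and 23.7 CPM to 7.75, 7.62 and 7.94 CPM (-1.65 ± 0.051, adjusted p = 1.1e-22). The tetraspanin gene CD82 fell from 7.43, 7.17 and 7.12 CPM to 3.15, 3.09 and 2.80 CPM (-1.26 ± 0.091) and SEMA6B from 56.1, 52.6 and 56.3 CPM to 26.3, 24.9 and 24.7 CPM (-1.12 ± 0.049). Other falls were those of COL4A2 (-1.07 ± 0.084), the oxidised LDL receptor gene OLR1 (-1.02 ± 0.10), the protein C receptor gene PROCR (-1.01 ± 0.074), the biliverdin reductase gene BLVRB (-0.90 ± 0.051), TNFRSF8, which encodes CD30 (-0.89 ± 0.071), and the annexin gene ANXA2 (-0.81 ± 0.034).

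**Figure D3:**
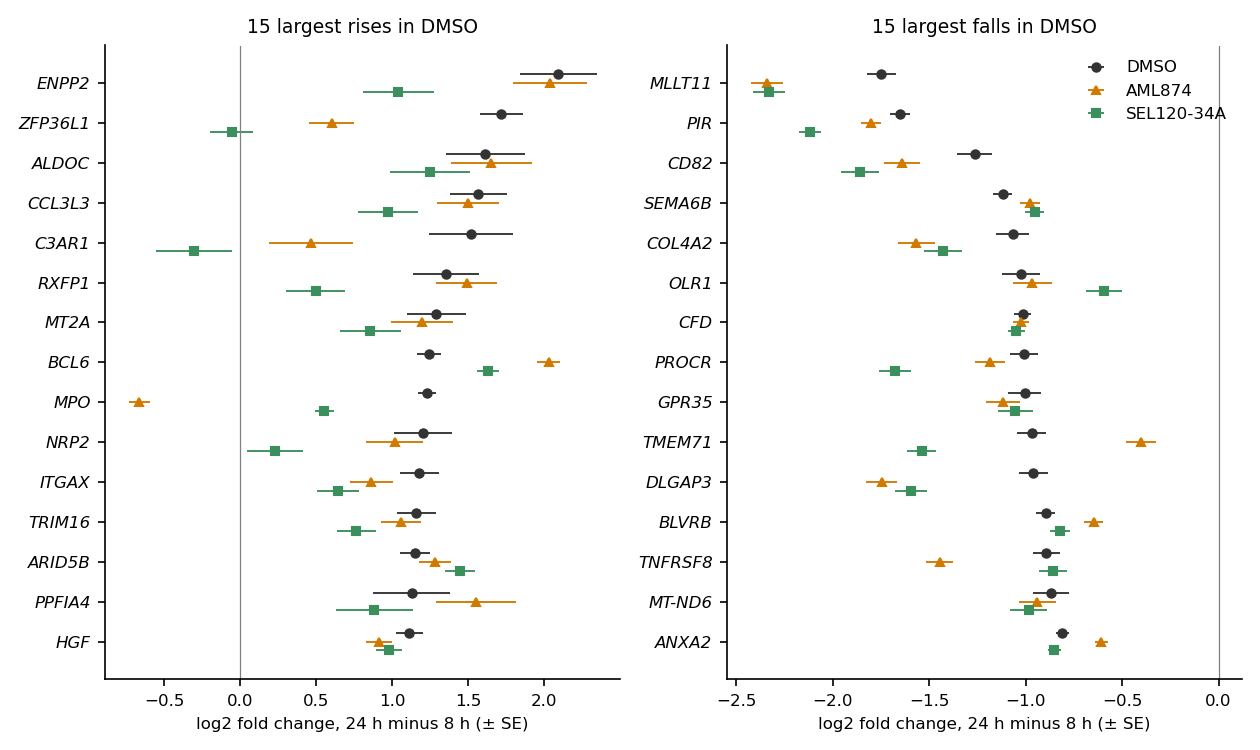
Log2 fold change between 24 h and 8 h (± standard error) in DMSO, AML874 and SEL120-34A for the 15 largest rises and 15 largest falls of DMSO culture, from the edgeR fit over 18 libraries. All 15 falls lie below 0 in every treatment, while MPO in AML874 (-0.67) and C3AR1 in SEL120-34A (-0.31) lie below 0 among the rises, with ZFP36L1 in SEL120-34A just below it (-0.057).

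The mitochondrial genome, which is transcribed as a long RNA from each strand, showed a split by strand that was noticed after the values were seen. All 7 tested genes read from the minus strand fell, with a median of -0.87, and of 20 genes on the plus strand 2 rose and 7 fell, with a median of -0.12. MT-ND6, the only protein-coding gene of the minus strand, went from 435, 446 and 454 CPM to 231, 224 and 276 CPM (-0.87 ± 0.10). On the plus strand MT-CO1 rose by 0.080 ± 0.026 and MT-ND2 fell (-0.41 ± 0.051). The other minus-strand genes are tRNAs, led by MT-TE (-1.41 ± 0.17) and MT-TS1 (-1.38 ± 0.16). They were rare in this polyadenylated RNA, with means at 8 h from 0.47 CPM for MT-TY, whose libraries overlapped, to 11.2 CPM for MT-TQ. The plus-strand tRNA genes MT-TI and MT-TD, also rare, fell as well (-0.65 ± 0.12 and -0.53 ± 0.17). Reads on the strand opposite to the plus-strand genes, which were tallied separately and not tested, were lower at 24 h without overlap for 12 of 14 genes and higher for 1, MT-RNR2, with a median log2 ratio of -0.78. Opposite MT-ND5 they went from 1171, 1169 and 1240.3 CPM to 625, 627 and 728 CPM. These were 36.9% of the sense reads at 8 h. MT-ND5 adjoins MT-ND6, and whether these reads belong to MT-ND6 transcripts was not tested. The minus-strand genes also fell in all 7 cases with AML874 and in all 7 with SEL120-34A, and for none of the 7 did the time change differ from that in DMSO at an adjusted p below 0.05.

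**Figure D4:**
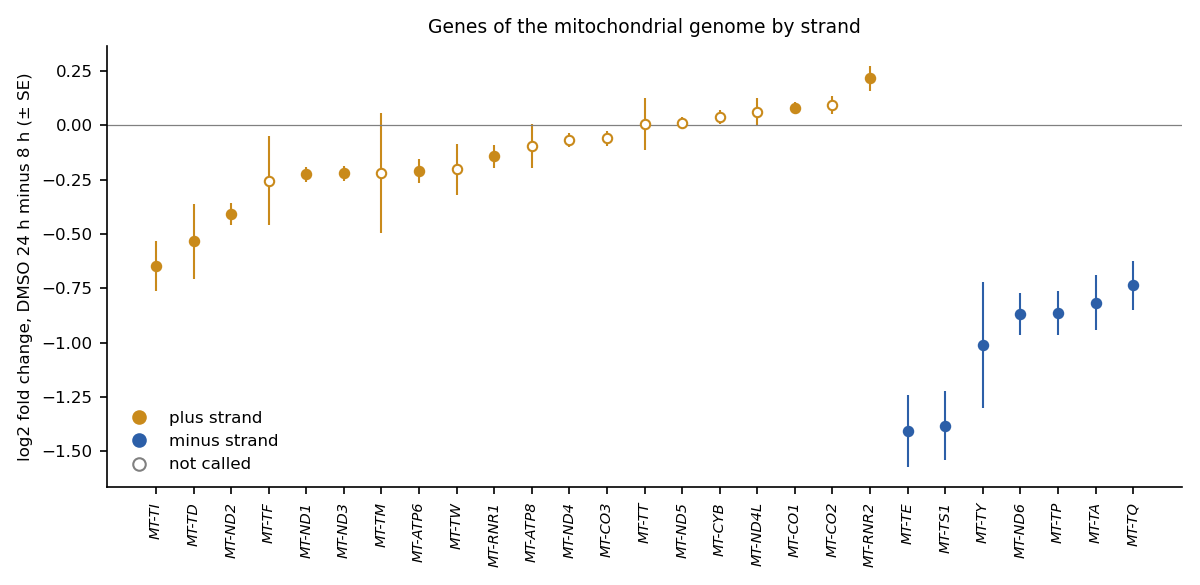
Log2 fold change between DMSO 24 h and DMSO 8 h (± standard error) of the 27 tested genes of the mitochondrial genome, grouped by coding strand, with open symbols for genes not called by edgeR. The 7 minus-strand genes lie between -0.74 and -1.41, below every plus-strand gene.

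The direction of change also followed the genomic span of a gene, the distance from its first to its last annotated base. Among 11159 protein-coding genes with at least 1 CPM, the median log2 fold change was -0.12 for the 860 genes of at most 5 kb, of which 13.3% rose and 50.6% fell. It was 0.13 for the 763 genes over 200 kb, of which 52.6% rose and 12.1% fell. The bins between rose in order, and each of the 3 libraries at 24 h, set against the 8 h mean, had a negative median in the shortest bin and a positive one in the longest. The same contrast of short and long genes was present with AML874 (-0.11 and 0.08) and with SEL120-34A (-0.088 and 0.15). Spearman's rho between span and change was 0.30 in DMSO across genes, which share libraries and are not independent replicates. The share of counts on the strand opposite to genes was 6.48 to 6.50% of the sense counts at 8 h and 6.30 to 6.33% at 24 h, and its part in this pattern was not tested.

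**Figure D5:**
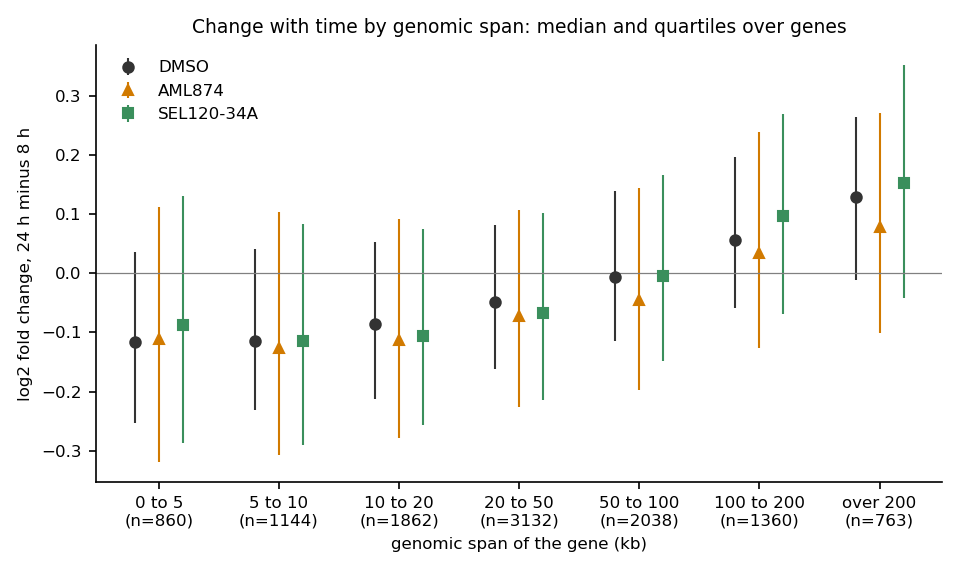
Median log2 fold change between 24 h and 8 h, with quartiles over genes, for 7 bins of genomic span in DMSO, AML874 and SEL120-34A. In DMSO the medians go from -0.12 in the shortest genes to 0.13 in the longest, and the quartile ranges of neighbouring bins overlap widely.

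Set against the time changes with the compounds, which share no library with the DMSO contrast, most of the DMSO change ran the same way. With AML874 10946 genes changed between 8 h and 24 h (52.3%), 25.3% of genes tested rising and 27% falling. With SEL120-34A 10591 changed (50.6%), 24.5% rising and 26.2% falling. Of the 4151 genes that rose in DMSO, 68.0% were also called higher with AML874 and 62.3% with SEL120-34A, and of the 4747 that fell, 77.9% and 69.5% were also called lower. These make up 53.2% and 50.6% of the genes called higher with AML874 and SEL120-34A, and 65.5% and 60.2% of those called lower. Across 12921 genes Pearson's r between the DMSO change and that with AML874 was 0.73, and with SEL120-34A 0.64, as a description. The difference itself was tested as an interaction. It was called for 4944 genes with AML874 (23.6%) and for 5706 with SEL120-34A (27.3%), and both of these tests use the same 6 DMSO libraries.

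Several groups differed from the compound cultures in their change with time. Above or below DMSO refers to that change and not to the level. Ribosomal protein genes rose with AML874 in 45 of 53 cases and with SEL120-34A in 36. Their time change was above that in DMSO for 42 and 33 genes, against 11.1% and 14.2% of all genes. The balance of this list in DMSO depended on scaling, and the counts with the compounds are given for the main scaling only. Host transcripts of small nucleolar RNAs, lower with time in DMSO, had medians of 0.09 and 0.01 with the compounds. Of the 15, 9 and 10 lay above DMSO in the test of the difference. Their mean level at 8 h was already lower with the compounds, at 6.08 to 6.13 log2 CPM with AML874 and 5.96 to 6.02 with SEL120-34A, against 6.22 to 6.29 in DMSO. At 24 h it was 6.05 to 6.07, 5.96 to 6.02 and 6.04 to 6.09. MHC class II genes lay above DMSO in 11 and 10 of 16 cases, and HLA-DRA rose with AML874 (0.47 ± 0.026) and SEL120-34A (0.41 ± 0.026). Mitotic genes lay below DMSO in 16 of 33 cases with either compound, against 12.5% and 13% of all genes. Their mean level at 8 h was 6.77 to 6.81 log2 CPM in DMSO, 6.71 to 6.75 with AML874 and 6.87 to 6.88 with SEL120-34A. At 24 h it was 6.63 to 6.69, 6.46 to 6.53 and 6.61 to 6.65, in that order. Replication genes lay above DMSO in 6 and 24 of 42 cases, against 11.1% and 14.2% of all genes, and below in 2 and 0. Their mean with SEL120-34A was 6.56 to 6.58 at 8 h and 6.56 to 6.62 at 24 h. In DMSO it was 6.78 to 6.835 and 6.67 to 6.68. The cholesterol list rose in all cultures, in 20 and 26 of 30 cases, with medians of 0.28 and 0.39. With AML874 12 members lay below DMSO and 1 above, with a median difference of -0.19. The mean level of the list with AML874 was 6.47 log2 CPM in each library at 8 h, against 6.27 to 6.28 in DMSO. At 24 h it was 6.68 to 6.85 against 6.63 to 6.81. With SEL120-34A 7 lay below and 4 above, with a median difference of 0.04.

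For single genes the difference could be large. MPO rose in DMSO and fell with AML874 (-0.67 ± 0.070), a difference of -1.89 ± 0.091 with an adjusted p of 3.9e-16, and with SEL120-34A it rose less (0.55 ± 0.064). ZFP36L1 rose less with AML874 (0.60 ± 0.15) and did not pass the test with SEL120-34A (-0.057 ± 0.14), with differences of -1.12 ± 0.20 and -1.78 ± 0.20. C3AR1 changed by -0.31 ± 0.25 with SEL120-34A, a difference of -1.83 ± 0.37 (adjusted p = 0.0025). Its mean with SEL120-34A was 6.38 CPM at 8 h and 5.21 at 24 h, against 2.17 and 6.13 in DMSO. CSF1R and CCL2 rose in DMSO and fell with both compounds, at -0.27 ± 0.057 and -0.63 ± 0.055 for CSF1R and at -1.17 ± 0.16 and -1.92 ± 0.16 for CCL2. Their differences from DMSO had adjusted p-values of 7.8e-08 and 3.3e-11 for CSF1R and of 4.4e-05 and 1.3e-06 for CCL2. In the other direction, RBM14, which encodes a nuclear RNA-binding protein, fell in DMSO (-0.27 ± 0.034) and rose with AML874 (0.72 ± 0.035) and SEL120-34A (1.28 ± 0.036). Its mean at 8 h was 65.6 CPM with AML874 and 50.1 with SEL120-34A, against 158 in DMSO. At 24 h it was 108 and 122 CPM against 131. The time change of the catalase gene CAT lay above that in DMSO by 0.66 ± 0.034 and 1.05 ± 0.034. FLT3 rose more with both compounds (1.45 ± 0.055 and 1.53 ± 0.056) than in DMSO (0.57 ± 0.055), and TFRC fell less (-0.19 ± 0.023 and -0.31 ± 0.023), with adjusted p-values of the difference of 2.6e-07, 7.5e-08, 1.3e-11 and 3.9e-08.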

How the data were processed

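PolyA-selected RNA of 18 OCI-AML1 libraries was sequenced, and gene counts, expected counts and TPM were deposited. Reads were aligned with STAR 2.7.1a and quantified with RSEM 1.3.2 against GRCh38, per the submitters' processing notes. The deposited count files hold raw counts per Ensembl gene, unstranded and for each strand. The reverse-strand column was used, since it held nearly all reads. Its summary lines, which name no gene (21.9 to 25.5% of the total in the DMSO libraries), were left out. The authors' expected counts from RSEM, rounded, served as an alternative, and the authors' TPM only for markers.

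Of 60609 identifiers, 60340 had a symbol in the gene name table, and 58502 had a position in GENCODE release 29 (GRCh38). Genes were filtered with filterByExpr (minimum count 10, minimum total 15), scaled by TMM, and tested with the quasi-likelihood test of edgeR 4.0.16 in R 4.3.3 in a model of 6 group means over all 18 libraries (12 residual degrees of freedom). Benjamini-Hochberg adjustment ran over 20920 genes at 0.05, two-sided. The test was run on simulated data. CPM values use TMM-scaled totals. Promoters came from RefSeq (GRCh38.p14).

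Genes are named by rule. The rule takes the 15 largest rises and 15 largest falls among protein-coding genes with at least 5 CPM in the higher group, a call, and libraries that do not overlap. It also takes the 5 largest of each direction among other genes of at least 1 CPM, list members by p or role, BCL2 family and Mediator kinase genes, and the 8 smallest interaction p-values per compound. Members and lists were chosen with earlier results of these data known. CSF1R and CCL2 in the comparison with the compounds, and the split of mitochondrial genes by strand, were picked after their values were seen. Alternatives were DESeq2 1.42.0, voom in limma 3.58.1, scaling by median-of-ratios factors or by library totals alone, no count filter, 1 CPM in 3 libraries, a replicate block, only the groups compared, unstranded counts, RSEM expected counts, and each library left out.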

Additional observations from a re-analysis of the deposited data

Results flagged for a closer look

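For the genes named here, the change between 24 h and 8 h with a compound differed from that in DMSO at an adjusted p below 0.05 in edgeR's interaction test, and the values below are those differences of log2 fold changes. Both tests use the same 6 DMSO libraries. Their causes were not tested.

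Of the 15 largest rises of DMSO culture, 2 lay below DMSO and 1 above with AML874, and 7 lay below and 1 above with SEL120-34A, while the others were not called. These genes were picked for a high change in DMSO, which enters the difference. Below and above refer here to the change with time and not to the level. With SEL120-34A, ENPP2 was higher than in DMSO at both times, with means of 51.2 CPM at 8 h and 105 at 24 h against 20.1 and 85.3. MPO was lower at both times, at 8.28 and 12.1 CPM against 14.9 and 35.0. ZFP36L1 differed by -1.12 with AML874 and -1.78 with SEL120-34A, MPO by -1.89 and -0.67, and for SEL120-34A alone C3AR1 differed by -1.83, ENPP2 by -1.05, NRP2 by -0.98, RXFP1 by -0.86 and ITGAX by -0.53. BCL6 lay above DMSO, by 0.79 with AML874 and 0.39 with SEL120-34A.

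Of the 15 largest falls, picked in the same way, 5 lay below DMSO and 3 above with AML874, and 7 below and 1 above with SEL120-34A. The differences with AML874 and then SEL120-34A were -0.59 and -0.58 for MLLT11, -0.37 and -0.59 for CD82, -0.50 and -0.36 for COL4A2, and -0.78 and -0.63 for DLGAP3, a postsynaptic scaffold gene. TMEM71 lay on opposite sides of DMSO, at 0.57 with AML874 and -0.57 with SEL120-34A. With SEL120-34A the difference was -0.46 for PIR, -0.67 for PROCR and 0.43 for OLR1. With AML874 it was -0.55 for TNFRSF8, 0.25 for BLVRB and 0.20 for ANXA2.

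Genes outside the protein-coding set also differed. With AML874 the long non-coding RNA gene LINC01094 differed by 1.05 and ENSG00000253821, which has no symbol in the table used, by -1.03. The pseudogene CSPG4P13 lay above DMSO by 1.37 with AML874 and 1.07 with SEL120-34A.

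The genes with the smallest interaction p-values per compound follow. With AML874 and then SEL120-34A the differences were 1.06 and 0.83 for the macrophage pore-forming gene MPEG1, 0.83 and 0.46 for the interferon regulatory factor IRF1, 0.66 and 1.05 for CAT, and 0.61 and 0.57 for TM7SF3. They were 0.64 and 0.34 for ETS2, 0.69 and 0.72 for the mRNA export gene NXT2, 0.99 and 1.55 for RBM14, and 0.44 and 0.64 for the mitochondrial topoisomerase gene TOP1MT. For BCLAF1 they were 0.18 and 1.03, and for the leukocyte receptor gene LILRA2 -0.65 and -0.88. THRAP3 differed by 0.59 with SEL120-34A. At 8 h the means with SEL120-34A were 149 CPM for BCLAF1 and 184 for THRAP3, against 309 and 295 in DMSO. At 24 h they were 274 and 259 CPM against 278 and 276. MPEG1 was instead higher with SEL120-34A at both times, at 73.3 and 142 CPM against 35.2 and 38.1.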

How the results depend on the processing

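The number of genes changed in DMSO (8898) stayed within 1.5 times under every alternative, from 8295 with a filter of 1 CPM in 3 libraries to 9061 with unstranded counts, and from 7584 to 8551 when a library was left out. The counts of genes risen and fallen by at least 2-fold stayed within that range except under a filter of 1 CPM in 3 libraries, where 92 rose and 24 fell, since that filter tests fewer rare genes. With each library left out they ranged from 409 to 533 risen and from 98 to 128 fallen, and the interactions from 4308 to 4731 with AML874 and from 5055 to 5720 with SEL120-34A. Library totals alone gave 5025 risen and 3770 fallen genes.

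Replicate numbers were shared between the groups. Deviations of same-numbered DMSO libraries from their group means correlated at -0.0014, 0.19 and -0.0042, not every library did so best with its own number, and so the numbers were not taken to pair the samples. The replicate block gave 8774 genes changed, 4085 risen and 4689 fallen.

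All 40 genes named as the largest changes, coding and non-coding, kept direction and call in each alternative run for them, which their choice by call and lack of overlap makes likely. Among the called list members and named genes, between 5 (limma-voom) and 59 (without the second 8 h library) lost their call. Directions reversed with RSEM expected counts for CD68 (-0.26), EGLN2 (-0.093), IL2RG (0.032), NDUFV2 (-0.13), NUSAP1 (-0.079) and SDHA (0.079), and with unstranded counts for MT-ND5 (-0.18). The cause was not tested. Genes near 3 counts, such as CA9 at 8 h, carry counting error that limits their fold changes.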

Other observations

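Gene groups not described above were mixed. Of 42 interferon-stimulated genes 10 rose and 9 fell in DMSO, with a median of -0.064 and the guanylate-binding protein gene GBP2 going from 14.5, 12.6 and 15.0 CPM to 33.5, 25.5 and 26.3 CPM (1.02 ± 0.13) and XAF1 at 0.67 ± 0.056. IFI44 had the largest fall among the called members (-2.20 ± 0.25), from 0.958, 0.634 and 0.840 CPM to 0.161, 0.164 and 0.197 CPM, and ISG15, a ubiquitin-like protein gene, was at -0.48 ± 0.061. Of 28 p53 targets 9 rose and 6 fell, with TP53INP1 at 0.64 ± 0.13 and AEN, an apoptosis nuclease, at -0.54 ± 0.038, while CDKN1A and MDM2 did not pass the test (adjusted p = 0.067 and 0.57). Of 14 STAT5 and cytokine feedback genes 8 fell and 2 rose, with SOCS1 at -0.65 ± 0.12 and OSM at -0.63 ± 0.10. Among 15 TGF-beta and SMAD genes 7 fell and 3 rose, and the SMAD corepressor gene SKIL went from 25.8, 26.3 and 28.8 CPM to 18.4, 18.2 and 19.98 CPM (-0.52 ± 0.048).

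Among 20 genes of endoplasmic reticulum chaperones and the unfolded protein response 9 fell and 4 rose, and XBP1, its transcription factor, was the largest riser (0.42 ± 0.029), from 326, 326 and 314 CPM to 452, 429 and 413 CPM. Of 15 circadian clock genes 6 fell and 2 rose, and the 6 became 2 without the first or without the second 8 h library. The clock repressor gene NR1D1 was at -0.24 ± 0.055 and the output factor gene DBP at 0.36 ± 0.065. Of 16 cytokine receptor genes 5 rose and 6 fell, with the G-CSF receptor gene CSF3R at 0.31 ± 0.031 and IL4R at -0.23 ± 0.036. Among non-coding genes of at least 1 CPM, OLMALINC rose by 1.26 ± 0.12 and LINC01094 went from 1.04, 0.988 and 1.16 CPM to 0.446, 0.283 and 0.304 CPM (-1.62 ± 0.20).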
